A study of Homo sapiens with 6 samples.

Results

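The 10 genes described here encode proteins that add ADP-ribose, help to add it or remove it, the drug's targets PARP1 and PARP2 among them. The genes are PARP1, PARP2, PARP3, HPF1, TNKS, TNKS2, PARG, ADPRS, MACROD1 and OARD1. They were taken by symbol from the tables of 24305 genes, where all 10 were found, and all 10 were among the 14452 genes tested. RNA was sequenced from DU 145 cells, an established castration-resistant prostate cancer line that the series design describes as deficient in homologous recombination repair, after 48 h with talazoparib (3 libraries) or in a control group labelled "DMOS" (3 libraries) and read here as DMSO, the solvent. All libraries came from the same line, with no other genotype or agent in the labels. The design text names doses of 5, 10 and 20 µM for the cell assays, and the labels do not say which was sequenced or whether replicates were separate cultures, so the tests speak only to variation among these libraries, part of which may be technical.

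PARP1 and PARP2 bind broken DNA and use NAD to build chains of ADP-ribose on themselves, histones and repair factors. The chains draw in repair proteins such as XRCC1, and their removal lets PARP1 leave the break. HPF1 completes the catalytic site of PARP1 and PARP2 and steers them to serine, PARG cuts the chains down, and ADPRS takes the last ADP-ribose off serine. Talazoparib occupies the catalytic site and holds PARP1 and PARP2 on DNA. The tankyrases TNKS and TNKS2 build chains on other proteins, among them the Wnt regulator axin.

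The 250 bases upstream of the RefSeq starts (build GRCh38.p14) are shown for the drug targets PARP1 and PARP2 and for PARG, the gene whose lower level held under every alternative tried, with motif matches in capitals, each line 5′ to 3′ on the gene's own strand. PARP1 lies on the minus strand at chr1:226408094-226408343, PARP2 on the plus strand at chr14:20343385-20343634 and PARG on the minus strand at chr10:49942028-49942277. The gene spans given below are from GENCODE 29, whose starts differ. The PARG window lies inside its span (chr10:49818279-49970203), and the PARP2 window runs past its GENCODE 29 start at 20343582.
PARP1: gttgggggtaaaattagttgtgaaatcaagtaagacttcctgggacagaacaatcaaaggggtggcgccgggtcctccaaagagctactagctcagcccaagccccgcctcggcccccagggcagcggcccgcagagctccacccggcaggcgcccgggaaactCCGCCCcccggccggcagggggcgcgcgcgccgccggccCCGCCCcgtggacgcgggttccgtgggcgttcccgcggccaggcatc
PARP2: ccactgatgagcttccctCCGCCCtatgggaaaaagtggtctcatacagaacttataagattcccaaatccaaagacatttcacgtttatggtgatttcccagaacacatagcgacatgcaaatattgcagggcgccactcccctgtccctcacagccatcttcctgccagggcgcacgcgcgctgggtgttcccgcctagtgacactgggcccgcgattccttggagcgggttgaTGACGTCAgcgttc
PARG: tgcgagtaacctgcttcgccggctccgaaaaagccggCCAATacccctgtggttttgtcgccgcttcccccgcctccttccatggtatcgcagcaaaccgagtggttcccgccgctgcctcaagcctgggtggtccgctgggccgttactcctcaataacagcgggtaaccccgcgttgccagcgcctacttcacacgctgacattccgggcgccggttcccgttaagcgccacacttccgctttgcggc
The capitals mark GGGCGG (the GC box), CCAAT and TGACGTCA (the cyclic AMP response element), searched on both strands together with TATAAA (the TATA box), an ETS site spelled CCGGAAG, TTTCGCGC (an E2F site) and the NRF1 motif. PARP1 had 2 GC boxes, PARP2 had 1 GC box and 1 cyclic AMP response element, and PARG had 1 CCAAT motif. Of all 35116 windows of this length, 42.6% held the GC box, 32.01% the CCAAT motif and 1.65% the cyclic AMP response element. Promoter windows were found for 9 of the genes, with several for OARD1, and TNKS is named only. A gene was counted when any of its windows held the motif, while the shares of all windows are per window. The GC box was found in 6 of these 9 genes, the CCAAT motif in 4, the ETS site (in 8.52% of all windows) in 3 and the cyclic AMP response element in 1; the other 3 motifs were found in none of them, and are in 10.7% (TATA box), 0.439% (E2F) and 1.03% (NRF1) of all windows. The GC content of the window was 70.4% for PARP1, 54.4% for PARP2 and 63.2% for PARG, against a median of 58% over all windows.

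Library totals ran from 39443359 to 39585727 counts with talazoparib and from 39123997 to 39545215 in control. Member counts were between 135 and 16642 in every library. Of 5 epithelial markers, KRT8 and KRT18 were abundant, at means of 557 and 577 CPM (counts scaled to library size) with talazoparib and 583 and 526 CPM in control. KRT19 averaged 91.4 CPM with talazoparib and 41.8 CPM in control and rose (log2 fold change 1.13; edgeR adjusted p = 9.02e-06). EPCAM was low, at 6.03 CPM with talazoparib and 4.74 CPM in control, and CDH1, the epithelial cadherin, was the lowest, at 0.798 CPM with talazoparib and 1.37 CPM in control. PTPRC and CD3E, which mark leukocytes, and COL1A2, DCN and LUM, which mark fibroblasts, had 0 counts in all 6 libraries. The leukocyte marker CD14 averaged 1.86 CPM with talazoparib and 0.918 CPM in control, and rose (log2 fold change 1.02; edgeR adjusted p = 0.00509). The fibroblast marker COL1A1 averaged 2.54 CPM with talazoparib and 2.55 CPM in control and did not pass. Summed over the listed markers, leukocyte genes came to 1.39 to 2.20 CPM with talazoparib and 0.869 to 1.01 CPM in control, endothelial genes to 0.354 to 0.608 and 0.126 to 0.435 CPM, and fibroblast genes to 2.08 to 2.96 and 2.48 to 2.71 CPM. In bulk RNA, fewer cells of a kind and less RNA per cell cannot be told apart.

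With talazoparib, PARG, TNKS, TNKS2, HPF1, OARD1 and PARP2 fell, PARP3 and ADPRS rose, and PARP1 and MACROD1 did not pass the test. These are 6 lower, 2 higher and 2 not called of 10, by edgeR's quasi-likelihood test on counts with Benjamini-Hochberg adjustment over all genes at 0.05. Over all 14452 genes tested that test called 56.7%, with 29.9% lower and 26.8% higher. The 8 called genes were also the 8 whose groups did not overlap, against 64.4% of all genes tested. The largest falls were to 0.541 of the control level for TNKS2 and 0.559 for PARG, and the larger rise was 1.45-fold for PARP3. With 1 library left out at a time, 5 to 6 members were called lower and 1 to 2 higher. Without control replicate 1, the control nearest to the talazoparib libraries, 6 were lower and 2 higher, and 8406 of 14724 genes were called. Leaving out that control sets the groups further apart, so this fit cannot show that the calls are stable.

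The same genes follow a trend with the composition of the transcript that runs through the whole data set. Across all 13718 tested genes with a GC value, log2 fold change and transcript GC content had a Spearman rho of 0.69, and across the 10 genes it was 0.77, a description over genes that share libraries. With each library's trend over GC content and gene length removed by an offset before the edgeR test, PARG and MACROD1 were called lower, TNKS was called higher, and the other 7 were not called. That fit called 44.2% of 13718 genes, 22.2% lower and 22.0% higher. The median log2 fold change of the 10 genes was -0.39 as deposited and -0.08 with the trend removed, against 0.0015 and -0.0032 over all genes tested. The part of this trend in the results was not tested, and each of the 10 genes is given with both values. Of the cell markers above, KRT19 was called higher trend-removed at 0.56, and KRT8 (-0.37) and KRT18 (-0.33) were called lower. EPCAM (0.34), CDH1 (-0.68), CD14 (0.55) and COL1A1 (-0.26) were not called in that fit.

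**Figure D1:**
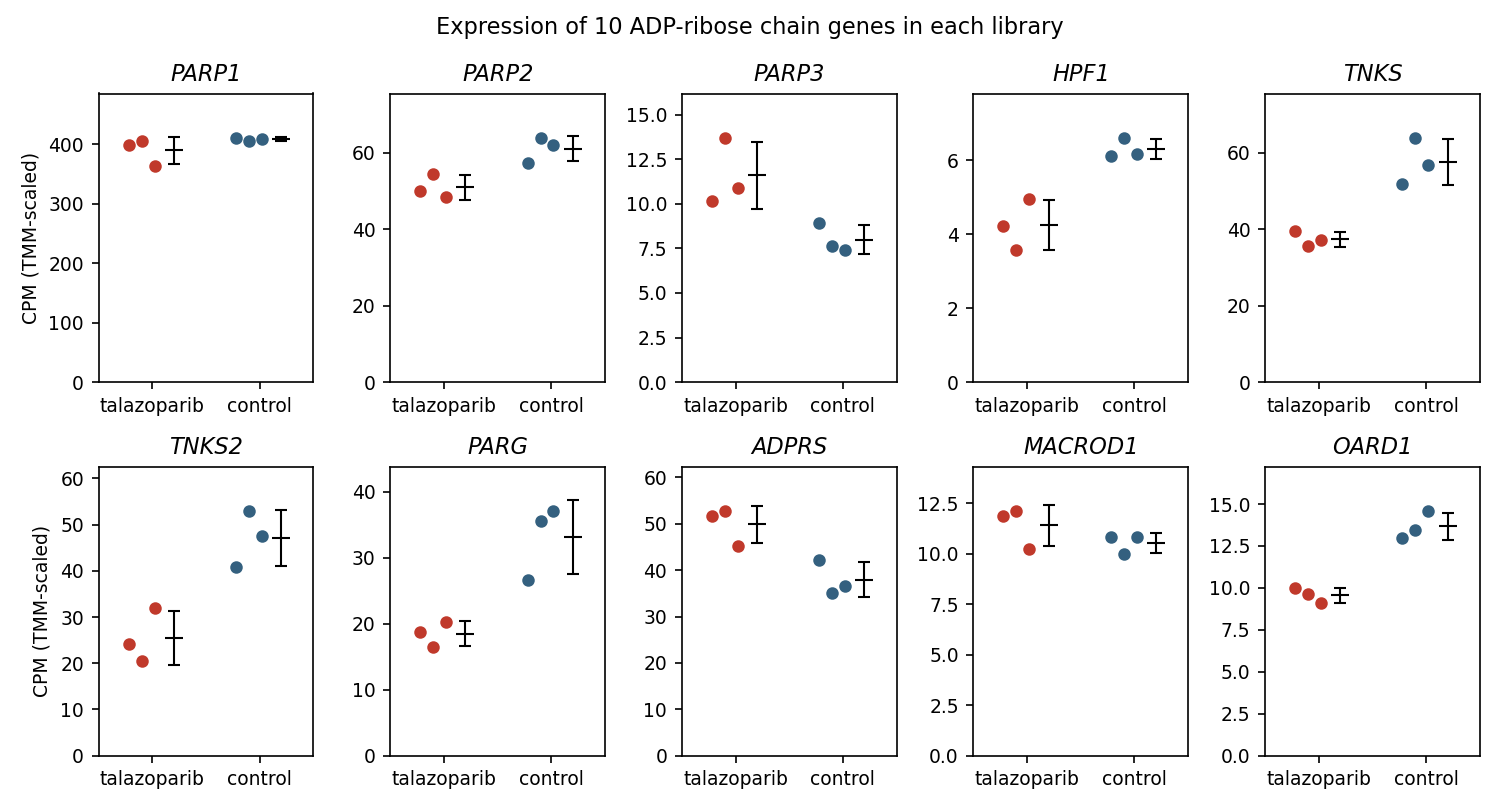
Normalised counts (CPM, y axis from 0) of the 10 genes in each of the 3 talazoparib (red, left) and 3 control (blue, right) libraries, with mean and SD over 3 libraries in black. PARG stood at 16.5 to 20.3 CPM with talazoparib and 26.6 to 37.1 CPM in control, while PARP1 overlapped between the groups.

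PARP1, the main maker of ADP-ribose chains (chr1:226360691-226408079, GRCh38), had 399, 405 and 364 CPM in talazoparib libraries 1 to 3, against 411, 405 and 408 CPM in control libraries 1 to 3. The groups overlapped, and talazoparib replicate 3 was the lowest of the 6. Its log2 fold change was -0.07 ± 0.07 (SE), with a 95% interval of -0.22 to 0.09 and an edgeR adjusted p of 0.435. Scaled by total counts the log2 fold change was -0.14 and passed as lower (edgeR adjusted p = 0.0305). That scaling moved the median of all genes from 0.0015 to -0.07. PARP1 passed in the 3 limma fits on FPKM as well, at -0.14 in each, but FPKM is also scaled by total counts. With the GC and length trend removed the log2 fold change of PARP1 was -0.07 (adjusted p = 0.229). Over all alternatives its adjusted p ran from 0.0305 to 0.990. PARP1 ranked above 97.8% of tested genes by mean control CPM. The genome holds processed copies of it, PARP1P1 and PARP1P2, and how reads shared with these copies were assigned was not tested.

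PARP2, which shares the catalytic fold and much of the DNA repair work of PARP1 (chr14:20343582-20357905), had 49.9, 54.5 and 48.3 CPM with talazoparib and 57.3, 63.9 and 61.9 CPM in control. Every talazoparib library lay below every control library, as did 32.8% of all genes tested. PARP2 fell by 0.26 on the log2 scale (SE 0.09; edgeR adjusted p = 0.0190). The call ended without talazoparib replicate 1 (-0.25) or replicate 3 (-0.22), against a fold of 1.2, and with the GC and length trend removed (-0.07, adjusted p = 0.506).

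PARP3, which adds ADP-ribose at double-strand breaks (chr3:51942345-51948867), had 10.2, 13.7 and 10.9 CPM with talazoparib and 8.94, 7.64 and 7.40 CPM in control. Talazoparib replicate 2 was the highest, and the groups did not overlap, as for 31.6% of all genes in this direction. PARP3 rose with a log2 fold change of 0.54 ± 0.15 (SE; edgeR adjusted p = 0.00931). Leaving out control replicate 2 (0.47) or 3 (0.45) ended the call, and so did removal of the GC and length trend (0.17 ± 0.12, adjusted p = 0.260).

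HPF1, the partner that directs PARP1 and PARP2 to serine (chr4:169729465-169757953), was the least counted of the genes, with 162, 135 and 195 counts in talazoparib libraries and 241, 272 and 251 in control libraries. In CPM these were 4.22, 3.59 and 4.94 with talazoparib and 6.12, 6.62 and 6.17 in control, without overlap. HPF1 fell by 0.57 on the log2 scale (SE 0.17; edgeR adjusted p = 0.0107). It has the shortest deposited length of the 10, 1216 nt, and the lowest GC content, 39.9%. In the length decile that holds it only 4.63% of genes fell, and in its GC decile 67.0% fell. With length alone removed the log2 fold change was -0.85 (adjusted p = 0.000456), and with GC and length removed it was -0.19 (adjusted p = 0.233).

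TNKS (chr8:9555914-9782346) had 39.5, 35.6 and 37.1 CPM with talazoparib and 51.9, 64.0 and 56.8 CPM in control. TNKS2 (chr10:91798312-91865276) had 24.2, 20.4 and 31.9 CPM with talazoparib and 40.8, 52.9 and 47.6 CPM in control. Neither tankyrase overlapped between the groups, and for TNKS2 talazoparib replicate 3 and control replicate 1 lay nearest to each other. TNKS fell by 0.62 on the log2 scale (SE 0.10; edgeR adjusted p = 0.000189) and TNKS2 by 0.89 (SE 0.15; adjusted p = 0.000555).

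The tankyrases have the longest deposited lengths of the 10, at 13896 nt for TNKS and 8554 nt for TNKS2. In the length decile of TNKS 62.2% of all genes fell, and in that of TNKS2 54.3% fell. The fall of TNKS turned round once the trend was removed: with length alone its log2 fold change was 0.06 (adjusted p = 0.591), and with GC and length it was 0.22 ± 0.06 (SE; adjusted p = 0.0148), higher with talazoparib. Trend-removed, TNKS stood at 50.2, 51.3 and 48.3 CPM with talazoparib and 45.0, 43.8 and 40.2 CPM in control. TNKS2 kept its call with length alone removed (-0.41, adjusted p = 0.00844) and not with both removed (-0.15, adjusted p = 0.253).

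**Figure D2:**
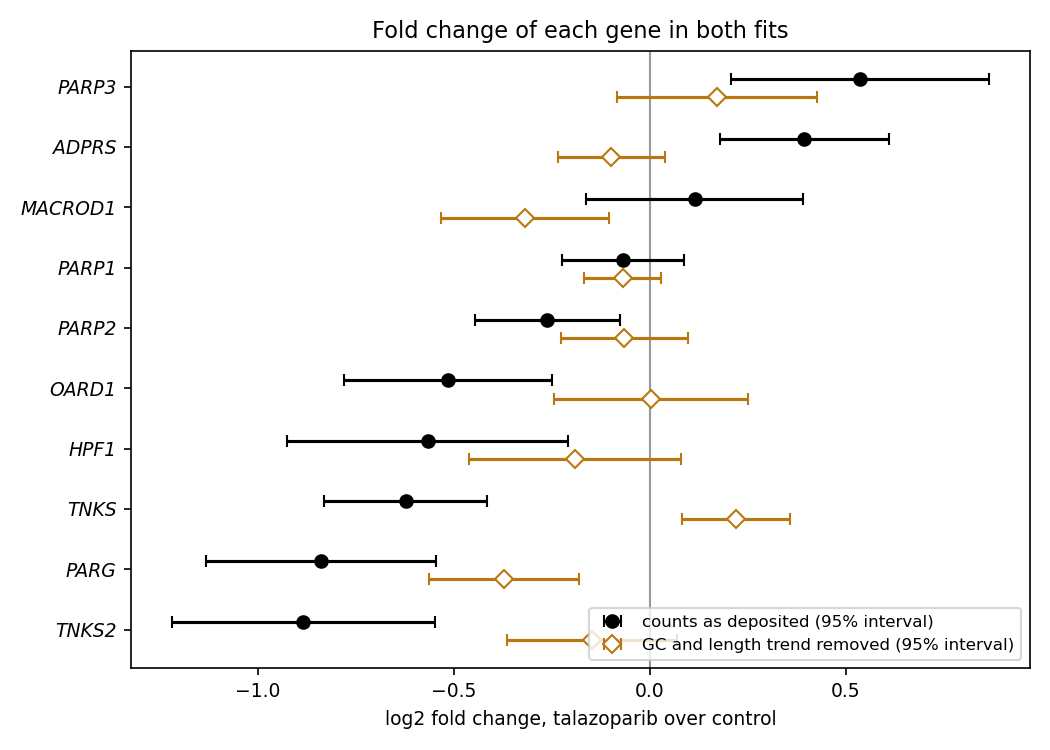
Log2 fold change of each gene (x axis), talazoparib over control, from the counts as deposited (filled circles) and with the GC and length trend removed (open diamonds), each with its 95% interval. PARG lies below 0 in both, TNKS at -0.62 and 0.22, and MACROD1 at 0.11 and -0.32.

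PARG, the main enzyme that cuts ADP-ribose chains (chr10:49818279-49970203), had 18.7, 16.5 and 20.3 CPM with talazoparib and 26.6, 35.6 and 37.1 CPM in control. Control replicate 1 was the lowest control, 0.45 log2 units below the mean of the other controls, and still lay above every talazoparib library. PARG fell by 0.84 on the log2 scale (SE 0.14; edgeR adjusted p = 0.000273). It was the only one of the 10 that was called in the same direction under all 19 alternatives, between -1.01 (without control replicate 1) and -0.37 (GC and length trend removed). Trend-removed, PARG had 21.7, 21.0 and 22.2 CPM with talazoparib and 24.6, 28.96 and 30.5 CPM in control, again without overlap (adjusted p = 0.00474). Its 42.95% GC content puts it in a decile where 61.7% of all genes fell, with a median of -0.53. The genome holds a transcribed copy, PARGP1, so reads shared between the copies make the level of PARG uncertain.

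ADPRS, the hydrolase that frees serine of its last ADP-ribose (named ADPRHL2 in GENCODE 29; chr1:36088875-36093932), had 51.6, 52.8 and 45.3 CPM with talazoparib and 42.3, 35.1 and 36.5 CPM in control. The groups did not overlap, and control replicate 1 was the highest control, 0.24 log2 units above the mean of the other controls. ADPRS rose with a log2 fold change of 0.39 ± 0.10 (SE; edgeR adjusted p = 0.00477). Against a fold of 1.2 and with length alone removed (0.18, adjusted p = 0.126) it was not called, and with GC and length removed the value was -0.10 ± 0.06 (adjusted p = 0.228). In its GC decile 54.4% of all genes rose.

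MACROD1 and OARD1 carry macrodomains and take ADP-ribose off acidic residues. MACROD1 (chr11:63998558-64166106) had 11.9, 12.1 and 10.2 CPM with talazoparib and 10.8, 9.98 and 10.8 CPM in control. These groups overlapped, and its log2 fold change was 0.11 ± 0.13 (SE; 95% interval -0.16 to 0.39; edgeR adjusted p = 0.468). It has the highest GC content of the 10, 67.3%, in a decile with a median log2 fold change of 0.43. Trend-removed it was called lower (-0.32 ± 0.10; adjusted p = 0.0202), at 10.2, 10.1 and 9.10 CPM with talazoparib and 11.8, 12.1 and 12.9 CPM in control.

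OARD1 (chr6:41033627-41097787) had 9.97, 9.62 and 9.08 CPM with talazoparib and 12.998, 13.4 and 14.6 CPM in control, without overlap. OARD1 fell by 0.52 on the log2 scale (SE 0.12; edgeR adjusted p = 0.00329). With the GC and length trend removed its log2 fold change was 0.0025, with a 95% interval of -0.25 to 0.25 (adjusted p = 0.988). The gene shares 747 exon bases (11.5% of its exon bases) with UNC5CL on the same strand and 75 with NFYA on the opposite strand. UNC5CL had 75, 87 and 86 counts with talazoparib and 111, 87 and 96 in control, against 358 to 383 and 512 to 593 counts for OARD1. NFYA had 1405, 1251 and 1430 counts with talazoparib and 1696, 2151 and 2114 in control, every library above OARD1 and the groups without overlap. Other members share exon bases with genes on the opposite strand as well. TNKS shares 607 (4.28% of its exon bases) and PARP2 shares 104 and 26 with antisense genes, and PARG shares 37 with TIMM23B. For all of these genes, how reads in the shared bases were assigned was not tested.

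**Figure D3:**
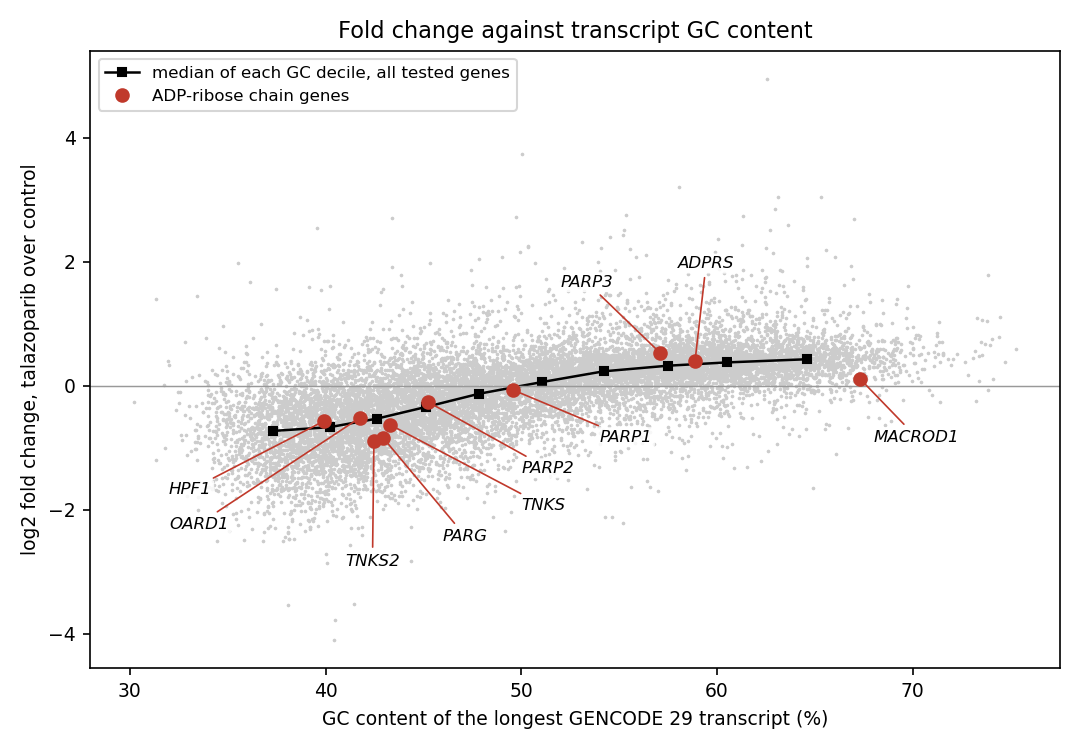
Log2 fold change (y axis) against GC content of the longest GENCODE 29 transcript (x axis) for all tested genes (grey), with the median of each GC decile (black squares). The 10 genes described here are in red, under the legend entry ADP-ribose chain genes. PARG and TNKS2 lie below the decile medians near them, at -0.84 and -0.89 against -0.53, and MACROD1 below its own, at 0.11 against 0.43.

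Levels were compared between genes as deposited FPKM, which divides by gene length. PARP1 was far above the rest, at 95.3 ± 3.38 FPKM with talazoparib and 105 ± 2.08 FPKM in control (SD, n = 3 each). PARP2 averaged 20.1 ± 0.859 FPKM with talazoparib and 25.5 ± 2.08 FPKM in control, and ADPRS averaged 29.3 ± 1.72 FPKM with talazoparib and 23.4 ± 1.72 FPKM in control. In talazoparib libraries ADPRS stood above PARP2 in 3 of 3, and in control libraries the ranges of PARP2 and ADPRS overlapped. The other 7 genes lay between 2.27 and 4.75 FPKM with talazoparib and between 2.77 and 8.68 FPKM in control. Among these, PARG was the highest in control at 7.73 ± 1.48 FPKM, followed by TNKS2, HPF1, TNKS, OARD1, MACROD1 and PARP3. Ranges overlapped in control between PARG and TNKS2, TNKS2 and HPF1, TNKS and OARD1, and MACROD1 and PARP3. Within libraries, PARG stood above TNKS2 and TNKS above OARD1 in 3 of 3 control libraries. TNKS2 stood above HPF1 in 2 of 3 and MACROD1 above PARP3 in 1 of 3, so the order within those pairs is not resolved. With talazoparib the order was PARP3, PARG, HPF1, MACROD1, TNKS2, TNKS and OARD1, and every neighbouring pair from PARP3 to TNKS overlapped in range.

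These levels rest on the deposited lengths. For MACROD1 that length is 3616 nt against 2089 exon bases in GENCODE 29, and for TNKS2 8554 nt against 6157. The difference runs the other way for PARP1, at 3978 nt against 7169 exon bases, and for OARD1, at 3987 nt against 6523.

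**Figure D4:**
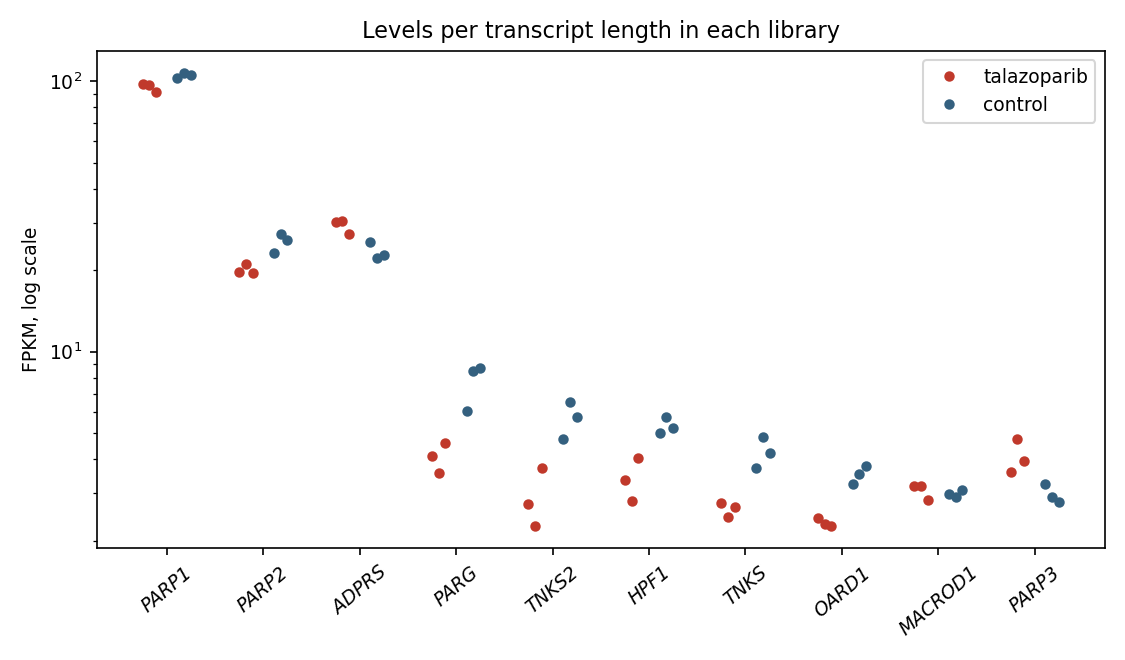
Deposited FPKM (y axis, log scale) of the 10 genes in each talazoparib (red, left) and control (blue, right) library, ordered by mean control level. PARP1 lies near 100 in all 6 libraries (91.4 to 107 FPKM), PARP2 and ADPRS between 19.6 and 30.4, and the others below 9.

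Ratios within a library do not depend on how libraries are scaled. The FPKM of PARP1 over that of PARG was 23.6, 27.3 and 19.9 with talazoparib and 17.1, 12.6 and 12.2 in control. Every talazoparib library was higher than every control library, and control replicate 1 was the nearest. The ratio was 1.69-fold higher with talazoparib (two-sided exact permutation test p = 0.1, the smallest that 3 against 3 libraries can give). Trend-removed over GC and length, a step added after the data were seen, the ratio was 1.23-fold higher (exact permutation p = 0.2).

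The ratio of ADPRS to PARG, the chain-end remover to the chain cutter, was 7.33, 8.52 and 5.93 with talazoparib and 4.22, 2.62 and 2.62 in control. PARP1 over PARP2 was 4.95, 4.59 and 4.66 with talazoparib and 4.43, 3.92 and 4.08 in control. Both ratios were without overlap between the groups as deposited, and neither was tested. With the GC and length trend removed, also added after the data were seen, both overlapped. ADPRS over PARG was then 5.42, 5.33 and 4.73 with talazoparib and 4.997, 4.05 and 3.87 in control, and its fold was 1.203 against 2.34 as deposited. PARP1 over PARP2 was 4.60, 4.10 and 4.58 with talazoparib and 4.65, 4.23 and 4.41 in control. TNKS over TNKS2 was 1.004, 1.07 and 0.716 with talazoparib and 0.784, 0.745 and 0.734 in control, where talazoparib replicate 3 lay below all controls and the others above them. Trend-removed it overlapped as well.

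**Figure D5:**
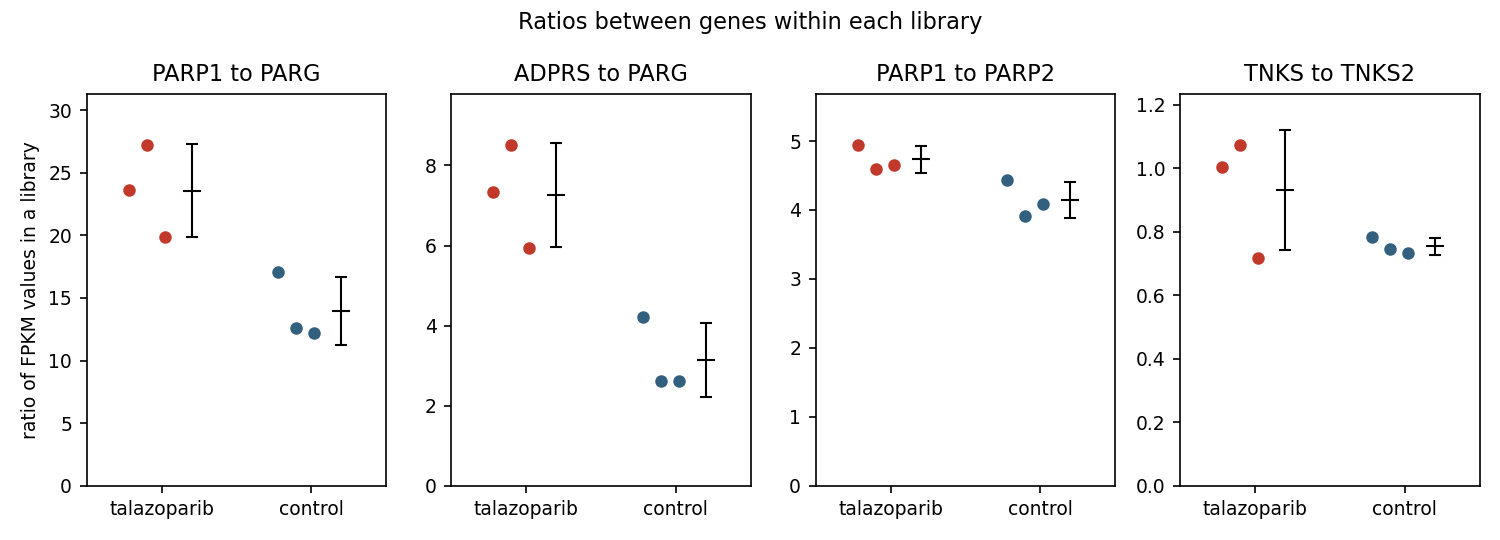
Ratios of deposited FPKM values within each talazoparib (red, left) and control (blue, right) library, with mean and SD over 3 libraries in black. PARP1 over PARG ran from 19.9 to 27.3 with talazoparib and from 12.2 to 17.1 in control, and TNKS over TNKS2 overlapped.

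The genes whose profile over the 6 libraries was most like that of PARP1 were FAM222B, HCFC1 and KDM1A, with a root mean square difference of 0.010 to 0.019 log2 units. Of 14451 genes compared, 1099 lay within 0.1 of PARP1. For PARG they were DSC3, PHKB and VEZT, at 0.037 to 0.045 log2 units, and 178 genes lay within 0.1. These profiles were compared without removal of the GC and length trend, and its part in the likeness was not tested.

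Among 8 other ADP-ribose and ADP-ribosyl hydrolases, 4 fell, 1 rose and 2 did not pass of 7 tested. Their median log2 fold change was -0.35, against 0.0015 over all genes. Over all genes tested, 29.9% fell and 26.8% rose as deposited, and 22.2% and 22.0% trend-removed. ENPP1, a surface pyrophosphatase, fell by 1.30 (SE 0.18; edgeR adjusted p = 7.99e-05), and was called lower trend-removed at -0.57. The Nudix hydrolases NUDT9 and NUDT16 fell by 0.44 and 0.35, and ADPRHL1, a relative of ADPRS, rose with 0.40. Trend-removed, ADPRHL1 was called at 0.40, NUDT9 (0.24) and NUDT16 (-0.11) were not, and the list had 2 higher and 1 lower, with a median of 0.03. The ADPRHL1 call ended without talazoparib replicate 2 (0.30) or control replicate 2 (0.33). MACROD2, at 5 to 11 counts, was not tested.

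Of 14 genes that bind ADP-ribose chains or act in single-strand break repair, 3 rose, 4 fell and 7 did not pass (median 0.11). The shares of all genes tested were 26.8% higher and 29.9% lower as deposited, and 22.0% and 22.2% trend-removed. XRCC1, the scaffold that the chains recruit, rose with 0.32 ± 0.10 (SE), and its trend-removed value was -0.13, not called. The fork protein TIMELESS rose with 0.23 and was called trend-removed at 0.19, but not with replicate number as a block (0.23, adjusted p = 0.0561). LIG3, the ligase partner of XRCC1, fell by 0.27 and was called higher trend-removed at 0.16. RNF146, a ubiquitin ligase that reads the chains, fell by 0.61 and was not called trend-removed (0.14). The calls for XRCC1 and TIMELESS ended when talazoparib replicate 1 or 2 or control replicate 2 or 3 was left out, at 0.23 to 0.32 and 0.18 to 0.23. The RNF146 call ended without talazoparib replicate 1 (-0.52), control replicate 2 (-0.50) or control replicate 3 (-0.61). Trend-removed, this list had 5 higher and 3 lower (median 0.09).

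Of 10 factors that take trapped PARP1 off DNA, 4 rose, 3 fell and 3 did not pass (median 0.04). The ubiquitin ligases TRIM33 and RNF4 fell by 1.08 and 0.36, and the SUMO ligase PIAS4 rose with 0.38. Trend-removed, RNF4 was called at -0.28, while TRIM33 (-0.15) and PIAS4 (-0.03) were not, and 2 were higher and 2 lower (median -0.07). Among 14 tankyrase substrates and partners, 4 rose, 6 fell and 4 did not pass (median -0.13). LNPEP, an aminopeptidase of glucose transporter vesicles, fell by 1.56, and AXIN1, BABAM1 and TNKS1BP1 rose with 0.47, 0.51 and 0.46. Trend-removed, LNPEP (-0.53), AXIN1 (0.16) and TNKS1BP1 (0.21) were called, BABAM1 (0.05) was not, and 4 were higher and 3 lower (median 0.05). All genes tested were 26.8% higher and 29.9% lower as deposited, and 22.0% and 22.2% trend-removed. The members of these lists were called in both directions too.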

How the data were processed

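TRIzol-extracted RNA went into VAHTS Universal V6 libraries, per the labels' protocols. Trimmomatic trimming software, the HISAT2 aligner, HTSeq, Cufflinks and build GRCh38 appear in the submitters' processing notes. Versions, annotation and the use of strand were not given in the sources used here, so reads of antisense partners cannot be told apart. The deposited counts are whole numbers per gene symbol. The FPKM values deposited by the authors equal count divided by a gene length and the column total: the implied lengths were whole within 0.01 nt for 99.9% of 21065 genes, and these lengths were used.

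The main test was edgeR 4.0.16, run in R 4.3.3 on the counts (filterByExpr with a minimum count of 10, TMM scaling, robust quasi-likelihood test, talazoparib against control, Benjamini-Hochberg at 0.05 over 14452 genes). CPM uses TMM-adjusted totals, except for the marker sums, which use total counts. Standard errors (SE) were obtained by dividing the size of each log2 fold change by √F. Trend removal fitted how far each library's log2 CPM lay from that gene's mean, using natural splines (5 degrees of freedom) of GC content (longest GENCODE 29 transcript, 94.9% of tested genes) and log2 length, as an offset. DESeq2 1.42.0, limma-voom and limma 3.58.1 on log2(FPKM + 1) and log2(FPKM + 0.1) were among the alternatives. Scripts were tested on simulated data. Members and gene lists were chosen with earlier results of these data known. Named were the 10 genes, up to 4 called genes of each list by smallest adjusted p, and the 3 nearest profiles of PARP1 and PARG; some genes these rules choose are not reported here. Genes named besides these, among the cell markers and overlapping genes, were chosen after their values were seen.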

Additional observations from a re-analysis of the deposited data

How the results depend on the processing

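PARG was called lower under all 19 alternatives. Of 190 member values under alternatives, 170 kept direction and side of the threshold and 5 turned sign. In all 14 lost the call, 3 of them with a turned sign, and 5 gained one (4 for PARP1 and 1 for MACROD1, with a turned sign). Removing the GC and length trend gave 1 member higher and 2 lower, and turned TNKS (0.22), MACROD1 (-0.32), ADPRS (-0.10), OARD1 (0.0025), NUDT9 (0.24), LIG3 (0.16), RNF146 (0.14), XRCC1 (-0.13), PIAS4 (-0.0253), PARP8 (0.0664), ZC3HAV1 (0.13), NAPRT (-0.0557) and NADSYN1 (-0.12). Removing length alone gave 1 member higher and turned TNKS (0.0606), LIG3 (0.27) and RNF146 (0.0138); the cause of these turns was not tested. Against a fold of 1.2, which by construction asks for more, 5325 genes were called (2043 higher, 3282 lower) against 8200, and 1 member was higher. With a library left out, calls ran from 6353 to 8549 genes, from 1 to 2 members higher and from 5 to 6 lower, and the PARP1 to PARG ratio from 1.57 to 1.89-fold. Total count scaling shifted the median of all genes to -0.07.

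Deviations of same-number replicates correlated at -0.09, -0.17 and 0.0039, and those of different numbers at -0.11 to 0.19. As deviations were centred within groups of 3 libraries, these values cannot show whether same-number libraries were handled together. With the replicate block 7580 genes, 2 members higher and 6 lower were called, and of the genes named TIMELESS lost its call. HPF1, at 135 to 272 counts, was the member most limited by depth.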

Other observations

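Of 12 other PARP family genes, mostly mono-ADP-ribosyltransferases, 11 were tested, and 6 fell, 2 rose and 3 did not pass (median log2 fold change -0.48). Over all genes tested, 29.9% fell and 26.8% rose as deposited, and 22.2% and 22.0% trend-removed. PARP10 rose with 1.72 ± 0.22 (SE; edgeR adjusted p = 6.25e-05), with 296, 286 and 311 counts with talazoparib and 71, 78 and 136 in control, and was called trend-removed at 1.28. PARP8, TIPARP and the antiviral ZC3HAV1 fell by 0.86, 0.58 and 0.49; trend-removed they stood at 0.07, -0.12 and 0.13, none called, and the list had 2 higher and 2 lower with a median of -0.03. PARP15, at 0 to 4 counts, was not tested.

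Of 8 enzymes that supply the NAD used by these genes' products, 7 were tested, and 3 rose and 4 did not pass (median 0.29). The shares over all genes tested were 26.8% higher and 29.9% lower. NAPRT rose with 0.45 ± 0.09, NADSYN1 with 0.29 ± 0.08 and the nuclear NMNAT1 with 0.46 ± 0.14 (SE). NMNAT1 was called trend-removed at 0.73, where NAPRT (-0.06) and NADSYN1 (-0.12) were not. Trend-removed, NMRK1 (0.87, adjusted p = 2.99e-05) and NAMPT (0.28, adjusted p = 0.000928) were called higher too, 3 of 7, with a median of 0.37. That fit called 22.0% of all its genes higher and 22.2% lower. As deposited NAMPT stood at -0.35 and NMRK1 at 0.27, and neither passed; both were named after their values were seen. The NMNAT1 call ended without talazoparib replicate 1 (0.39) or control replicate 2 (0.38). QPRT, at 1 to 11 counts, was not tested.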
